A study of Mus musculus with 24 samples.

Results

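Mm036 and Mm037 are 2 probes with consecutive numbers on a focused two-colour mouse array, Sterolgene V1, which carries 120 mouse probes in 3 copies each. They were picked by number, after their log2 ratios in these samples were known, and both were among the 80 probes bright enough to be tested. No source used here links either number to a gene, so both keep their probe names and no role can be stated for them. Per its title, the study addressed phenobarbital's effect on CAR- and PXR-regulated genes of cholesterol homeostasis and drug metabolism. There were 4 groups of 6 arrays: CAR-deficient, PXR-deficient and CAR/PXR-deficient male C57BL/6J mice, 9 to 12 weeks old, and wild-type (WT) C57BL/6J males whose age the labels do not give. In every group the Cy5 channel held RNA from the livers of mice injected intraperitoneally with phenobarbital (100 mg/kg) and killed 12 h later. Vehicle-injected mice (corn oil with 5% DMSO) supplied the Cy3 channel, as 1 pool of 6 livers per genotype. Ratios are Cy5 over Cy3, so values above 0 stand for more signal in treated liver. The deficient genotypes are written CAR-/-, PXR-/- and CAR/PXR-/- in the study's design, which does not describe the alleles, and neither the receptor transcripts nor liver markers could be checked on probes without gene names.

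CAR and PXR are nuclear receptors of the liver that sense foreign compounds and, as partners of the retinoid X receptor, switch on genes of drug oxidation, conjugation and transport. Phenobarbital, a classical inducer of liver drug-metabolising enzymes, activates mouse CAR indirectly, by releasing it into the nucleus. PXR is activated by direct binding of many drugs and steroids, and the gene sets of both receptors overlap. Mice deficient in one receptor or in both are the standard way to tell their shares apart.

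The arrays differed in brightness and balance. Between 44 and 115 of the 120 probes lay above background on an array (median 78.5), and the group medians were 76.5 in CAR-deficient, 82.5 in PXR-deficient, 93 in CAR/PXR-deficient and 56 in WT liver. The submitters flagged 0 to 66.4 percent of the probe spots of an array (median 38.2), and flagged spots were left out. On WT replicates 2 to 5 the share was 53.6 to 66.4 percent, but it was 6.94 percent on WT replicate 1 and 0 on WT replicate 6. The WT arrays were thus normalized on unlike sets of spots. PXR-deficient replicates 1 and 2 differed by 1.04 times the variance expected from replicate spots, were averaged and counted as 1 sample, and are written replicates 1-2, which left 23 samples. WT replicates 2 and 6 came next among the 60 pairs of arrays, at 1.79 times, and their values are set apart below. On CAR/PXR-deficient replicates 1 and 2 the median of all probes exceeded that of the calibration spike-ins by 2.01 and 2.25 on the log2 scale, against -0.74 to 0.95 on the other arrays. The labels do not say that the replicates are separate mice, so every SD given here measures the spread between these samples. Each SE comes from 1 fit in which all groups share 1 estimate of the spread, and so does not follow the SD of a single group. With each genotype fitted alone, the SE of Mm037 was 0.07 in CAR-deficient and 0.19 in WT liver. For the PXR-deficient minus WT difference of Mm037 it was then 0.32. The WT SE of Mm036 was also 0.19 in that fit, although the WT SDs were 0.36 for Mm036 and 0.67 for Mm037. That WT SE thus reflects a spread shared between probes, and does not measure the wider WT spread of Mm037. All ratios of a genotype share 1 pool, and the Cy5 dye was always on the treated sample. In bulk liver, fewer cells of a type and less RNA per cell cannot be told apart.

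Mm036 and Mm037 are neighbours in number but not on the glass. The 3 copies of Mm036 lay in block 2, at rows 1, 6 and 12, and those of Mm037 in block 1, at rows 2, 7 and 13, in columns 3, 13 and 7 of both blocks. All 72 copies of Mm036 over the 24 arrays were usable, and 3 of the 72 copies of Mm037 were flagged by the submitters and left out, which left 1 copy on WT replicate 2. Mm036 was above background in both channels on all 24 arrays. Mm037 was above background on 24 arrays in the treated channel and on 23 in the pool channel, the exception being WT replicate 2. No copy of either probe held a saturated pixel. The SD between copies on an array had a median of 0.07 for Mm036 and 0.12 for Mm037 on the log2 scale. The widest spread was on WT replicate 5, where the copies of Mm037 ran from 0.43 to 1.68.

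Mm037 had its highest mean log2 ratio under loess normalization in PXR-deficient liver and its next highest in WT liver. The second place of WT liver depended on the scaling. Its mean was the lowest of all groups when arrays were centred on the spike-ins (0.64). The ratios deposited by the authors also put WT liver lowest, at 0.57. In PXR-deficient liver the log2 ratios were 1.25 in replicates 1-2, 1.59 in replicate 3, 2.32 in replicate 4, 1.53 in replicate 5 and 0.94 in replicate 6. All 5 samples were well above 0, with replicate 4 the highest and replicate 6 the lowest. The mean was 1.52 ± 0.51 (SD, n = 5; SE of the fit 0.18), a 2.88-fold higher level after phenobarbital than in the vehicle pool.

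In WT liver the log2 ratios of Mm037 were 0.75, 0.34, 1.47, 1.83, 1.08 and 0.05 in replicates 1 to 6. All 6 samples were above 0 but they were far apart, and the lowest were replicates 2 and 6, the nearly alike pair. Mm037 was dim on both arrays, with pool intensities of 344 and 453 units, and replicate 2 had 1 usable copy. The mean was 0.92 ± 0.67 (SD, n = 6; SE 0.17), or 1.89-fold. With that pair counted once it was 1.07, and without the pair, which held the lowest values, 1.28.

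Under loess, Mm037 had lower mean ratios in the groups without CAR than in WT liver, which was not kept with spike-in centring or in the authors' value table. In CAR-deficient liver the log2 ratios were 0.29, 0.28, 0.32, -0.07, 0.36 and 0.25 in replicates 1 to 6, with replicate 4 alone below 0. The CAR-deficient mean was 0.24 ± 0.16 (SD, n = 6; SE 0.17), or 1.18-fold. In CAR/PXR-deficient liver the log2 ratios were 0.36, 0.37, 0.33, 0.59, 0.65 and 0.14, all above 0 and all under the lowest PXR-deficient sample. Their mean was 0.41 ± 0.19 (SD, n = 6; SE 0.17), or 1.33-fold.

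Mm036 was higher after phenobarbital in every PXR-deficient sample, but under loess normalization its means in the other groups were near 0, so the label "induced" does not describe it there. Its PXR-deficient log2 ratios were 0.62 in replicates 1-2, 0.71 in replicate 3, 0.89 in replicate 4, 0.76 in replicate 5 and 0.29 in replicate 6. All 5 were above 0, and replicates 4 and 6 were again the highest and the lowest. The mean was 0.65 ± 0.23 (SD, n = 5; SE 0.11), a 1.57-fold higher level after phenobarbital.

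CAR-deficient replicates 1 to 6 had log2 ratios of -0.15, 0.03, 0.19, 0.07, 0.33 and 0.26, with a mean of 0.12 ± 0.18 (SD, n = 6; SE 0.10). CAR/PXR-deficient replicates 1 to 6 had -0.28, 0.05, -0.02, 0.04, 0.20 and -0.10, with 3 samples on either side of 0 and a mean of -0.02 ± 0.16 (SD, n = 6; SE 0.10). WT replicates 1 to 6 had 0.58, -0.25, -0.0018, 0.44, 0.12 and -0.31, again with 3 on either side of 0, and a mean of 0.10 ± 0.36 (SD, n = 6; SE 0.10). The WT samples thus spread more widely than those of the deficient groups, and the lowest were once more replicates 2 and 6. With this pair counted once the WT mean was 0.17, and without it 0.29.

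**Figure D1:**
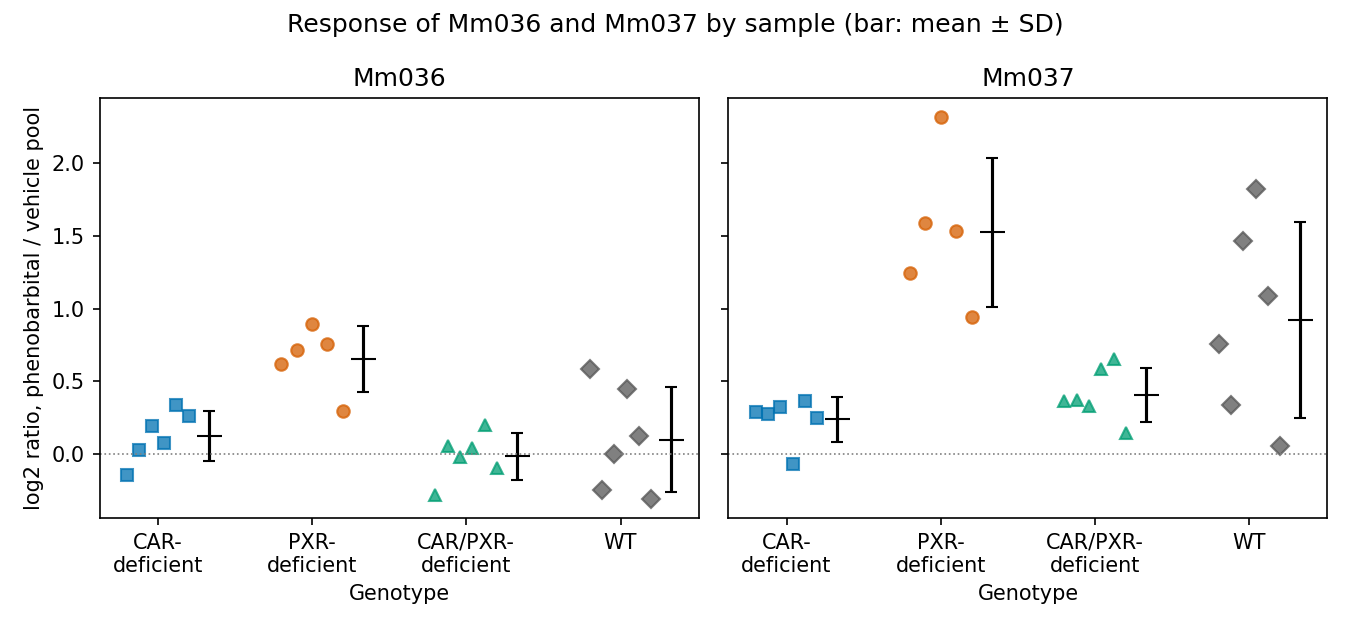
Log2 ratio of treated liver over the vehicle pool (vertical axis) for Mm036 and Mm037 in each sample, by genotype (horizontal axis), with the mean and SD beside the points. The 5 PXR-deficient samples of Mm037 lie between 0.94 and 2.32, above every CAR-deficient and CAR/PXR-deficient sample, while the 6 WT samples run from 0.05 to 1.83.

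Because both probes were picked with these ratios known, the calls of the limma fit (Benjamini-Hochberg adjusted p under 0.05) are given as a description and nothing is read from them. Both probes were called higher in PXR-deficient liver, where 20 percent of the 80 tested probes were called higher. Mm037 alone was called higher in WT liver, beside 15 percent of 80 probes. Neither was called in CAR/PXR-deficient liver, beside 16.2 percent of 80, or in CAR-deficient liver, beside 0 percent of 78, where limma gave 3 probes higher and 9 lower at an unadjusted p under 0.05. By rank of the log2 ratio among the tested probes, Mm037 stood 4th in PXR-deficient and 5th in WT liver, and Mm036 8th and 32nd. In CAR-deficient liver Mm037 was 7th and Mm036 16th of 78, and in CAR/PXR-deficient liver they were 10th and 44th of 80. The median log2 ratio over all tested probes was between -0.01 and 0.01 in each group.

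Without a within-array centring or with another one, some of these values and calls changed. With median centring in place of loess, Mm036 had a mean log2 ratio of 0.57 in WT liver and was called there. Under the 5 other scalings run, the WT mean of Mm036 ran from 0.14 to 0.96 and was not called. Mm037 lost its call in WT liver with centring on the calibration spike-ins (mean 0.64) and in the authors' value table (0.57), and when only arrays of the second range of spot coordinates were fitted, where WT replicate 6 (0.05) was the lone WT array and its spread was taken from the other groups. Mm037 in CAR/PXR-deficient liver was called in the authors' value table, in that table after median centring, with spike-in centring, with 3 alike pairs of arrays counted once, with the replicate number as a block, and when the group was fitted alone. The 3 pairs were replicates 1 and 2 and replicates 3 and 4 of PXR-deficient liver, and WT replicates 2 and 6. CAR/PXR-deficient replicates 1 and 2, at 2.11 times the expected variance against 2.12 for PXR-deficient replicates 3 and 4, were still counted apart. Mm036 in CAR/PXR-deficient liver was called in the authors' value table and after spike-in centring. In CAR-deficient liver both probes were called under these 2 scalings as well, Mm036 also in the authors' value table after median centring, and Mm037 also when the group was fitted alone. The call of Mm036 in PXR-deficient liver was lost only without any normalization, and that of Mm037 in PXR-deficient liver was kept under all 16 alternatives and all 5 omissions of a sample.

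Differences between genotypes are given under loess first. For Mm037, PXR-deficient minus CAR-deficient liver gave a log2 difference of 1.29 (SE 0.25), against a pooled SD between samples of 0.36. The samples did not overlap, with 0.94 to 2.32 in PXR-deficient and -0.07 to 0.36 in CAR-deficient liver, and 10.4 percent of 77 probes were likewise higher in PXR-deficient liver with no overlap. CAR/PXR-deficient minus PXR-deficient liver gave -1.12 (SE 0.25, pooled SD 0.37), again with no overlap, as for 17.7 percent of 79 probes in this direction, but the authors' value table gave -0.11 and spike-in centring -0.76. In the limma fit 10.3 percent of 78 probes were called higher in PXR-deficient than CAR-deficient liver, 18.8 percent of 80 lower in CAR/PXR-deficient than PXR-deficient liver, and 6.25 percent of 80 higher in PXR-deficient than WT liver, with Mm036 in all 3 counts and Mm037 in the first and the second. These counts of probes describe the array as a whole, and Mm036 and Mm037 were chosen with their ratios known.

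For Mm036 the same pairs of groups had smaller differences. PXR-deficient minus CAR-deficient liver was 0.53 (SE 0.15, pooled SD 0.20), and the samples overlapped, since PXR-deficient replicate 6 at 0.29 lay under CAR-deficient replicate 5 at 0.33. CAR/PXR-deficient minus PXR-deficient liver was -0.67 (SE 0.15, pooled SD 0.19), with no overlap between -0.28 to 0.20 in CAR/PXR-deficient and 0.29 to 0.89 in PXR-deficient liver. In the authors' value table these differences were 0.17 and 0.17, the second turned in sign. CAR/PXR-deficient minus CAR-deficient liver gave differences of -0.14 for Mm036 (SE 0.14) and 0.17 for Mm037 (SE 0.24), each no larger than the pooled SD of 0.17 of either probe, and their samples overlapped. These values depended on the scaling: the difference was 0.65 for Mm037 and 0.27 for Mm036 with spike-in centring. The authors' value table gave 1.04 and 0.34, and unnormalized ratios gave -0.71 and -1.09.

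Against WT liver the groups of both probes overlapped in every comparison under loess. For Mm037 the difference was -0.68 in CAR-deficient (SE 0.24, pooled SD 0.49), 0.60 in PXR-deficient (SE 0.25, pooled SD 0.61) and -0.51 in CAR/PXR-deficient liver (SE 0.24, pooled SD 0.49). Under loess the PXR-deficient difference was thus no larger than the spread between samples. It was 0.35 with the 3 alike pairs counted once, 0.24 without WT replicates 2 and 6 and 0.42 without normalization. With median centring it was 0.92, in the authors' value table after median centring 0.97, in that table as given 1.39 and with spike-in centring 1.65. Without WT replicates 2 and 6, the differences of CAR-deficient and CAR/PXR-deficient minus WT liver became -1.04 and -0.88. The sign of these last 2 differences depended on the scaling. Spike-in centring turned them to 0.25 in CAR-deficient and 0.90 in CAR/PXR-deficient minus WT liver. The authors' deposited ratios gave 0.24 and 1.28. Both differences stayed negative with median centring (-0.70 and -0.54), loess per block (-0.60 and -0.45) and no normalization (-1.01 and -1.72). They were also negative once the deposited ratios were median centred (-0.46 and -0.21). For Mm036 the differences were 0.02 in CAR-deficient (SE 0.14), 0.56 in PXR-deficient (SE 0.15) and -0.12 in CAR/PXR-deficient liver (SE 0.14). The second of these exceeded the pooled SD of 0.31. It was 0.44 with the 3 alike pairs counted once, 0.37 without WT replicates 2 and 6, and -0.12 without normalization. The 3 differences were 0.59, 1.12 and 0.86 with spike-in centring, while the authors' value table gave 0.81, 0.99 and 1.16.

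In order of the mean log2 ratio under loess, Mm037 ran PXR-deficient, WT, CAR/PXR-deficient and CAR-deficient. The steps of 0.60, 0.51 and 0.17 were each close to the pooled SD of the neighbouring groups, 0.61, 0.49 and 0.17. All neighbouring groups overlapped. Of the groups further apart in the order, PXR-deficient liver was separate from CAR/PXR-deficient and CAR-deficient liver, while WT and CAR-deficient liver overlapped. For Mm036 the order was PXR-deficient, CAR-deficient, WT and CAR/PXR-deficient, and the last 3 did not differ beyond their spread.

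By their spot coordinates the arrays fell into 2 ranges, called positions here although neither labels nor headers name them, 3 and 3 in each deficient group but 5 and 1 in WT. On the arrays of the first position, Mm037 averaged 0.32 in CAR-deficient, 1.48 in PXR-deficient, 0.45 in CAR/PXR-deficient and 1.09 in WT liver, and Mm036 averaged 0.13, 0.71, -0.04 and 0.18 in the same order. At the second position the means of Mm037 were 0.15 in CAR-deficient, 1.47 in PXR-deficient and 0.37 in CAR/PXR-deficient liver, against 0.05 in the lone WT array. Those of Mm036 were 0.12, 0.59 and -0.0011 in the deficient groups, against -0.31 in that WT array. The order of the deficient groups held at both positions for both probes, and the place of WT did not.

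The scanner intensities behind these ratios show how far each channel moved. After subtraction of the local background, Mm037 had a lowest, median and highest treated intensity of 1942, 3301 and 5651 units on PXR-deficient arrays, over 600, 992.5 and 1826 units in the pool. On WT arrays the treated intensities were 302, 2217 and 8236 over pool intensities of 344, 675 and 1703. On CAR-deficient arrays the treated intensities were 295, 608.5 and 1144 over pool intensities of 309, 493.5 and 778. CAR/PXR-deficient arrays had treated intensities of 435, 1876.5 and 2668 over pool intensities of 1196, 1831.5 and 3077. Mm037 was thus dim in both channels of the CAR-deficient arrays, the group whose mean ratio under loess lay nearest to 0. It was as dim on WT replicates 2 and 6, the lowest WT ratios, with treated intensities of 302 and 390 over pool intensities of 344 and 453.

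Mm036 gave stronger signals throughout. Its treated intensities on PXR-deficient arrays had a lowest, median and highest value of 5259, 6982.5 and 10121 units, over 2208, 4617.5 and 6889 units in the pool. On CAR/PXR-deficient arrays they were 1541, 6425.5 and 10732, over 5992, 9641 and 18962 in the pool. On CAR-deficient arrays they were 1599, 4204.5 and 5544 over 1928, 3015 and 3504, and on WT arrays 2715, 5386.5 and 23807 over 2123, 3000 and 5856. The balance between the dyes differed between arrays of 1 group: on CAR/PXR-deficient replicate 1 Mm036 had 1541 treated and 10142 pool units, on replicate 4 it had 10732 and 9140, and after loess their log2 ratios were -0.28 and 0.04.

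Levels per channel, made comparable by loess and by normalization of the mean intensities between arrays, showed where the genotypes parted. The treated-channel log2 level of Mm037 was 9.68 ± 0.31 in CAR-deficient, 11.91 ± 0.40 in PXR-deficient, 10.44 ± 0.33 in CAR/PXR-deficient and 10.85 ± 0.96 in WT liver (SD, n = 6 samples each, but 5 in PXR-deficient liver with replicates 1-2 averaged). PXR-deficient levels ran from 11.51 to 12.39 and did not overlap with the CAR-deficient levels of 9.34 to 10.09, as for 7.5 percent of 80 probes, or with the CAR/PXR-deficient levels of 10.09 to 11, as for 6.25 percent of 80. The pool channel also differed: its level of Mm037 was 9.44 ± 0.27 in CAR-deficient, 10.39 ± 0.34 in PXR-deficient, 10.03 ± 0.19 in CAR/PXR-deficient and 9.97 ± 0.47 in WT liver. The PXR-deficient pool, at 10.08 to 10.75, did not overlap with the CAR-deficient pool at 9.08 to 9.77, as for 5 percent of 80 probes. The spread of a pool level is that of repeated hybridizations of 1 pool and says nothing of the spread between vehicle mice.

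For Mm036 the treated-channel log2 level was 12.01 ± 0.19 in CAR-deficient, 12.62 ± 0.22 in PXR-deficient, 12.23 ± 0.15 in CAR/PXR-deficient and 12.49 ± 0.27 in WT liver. Its pool level was 11.89 ± 0.28 in CAR-deficient, 11.96 ± 0.09 in PXR-deficient, 12.24 ± 0.12 in CAR/PXR-deficient and 12.39 ± 0.34 in WT liver (SD, n as for Mm037). The treated levels of PXR-deficient and WT liver were thus close, 12.28 to 12.84 against 12.14 to 12.94, and the pools stood further apart on average, 11.82 to 12.04 against 11.74 to 12.77. A different response of Mm036 and a different vehicle pool in WT liver therefore cannot be told apart.

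**Figure D2:**
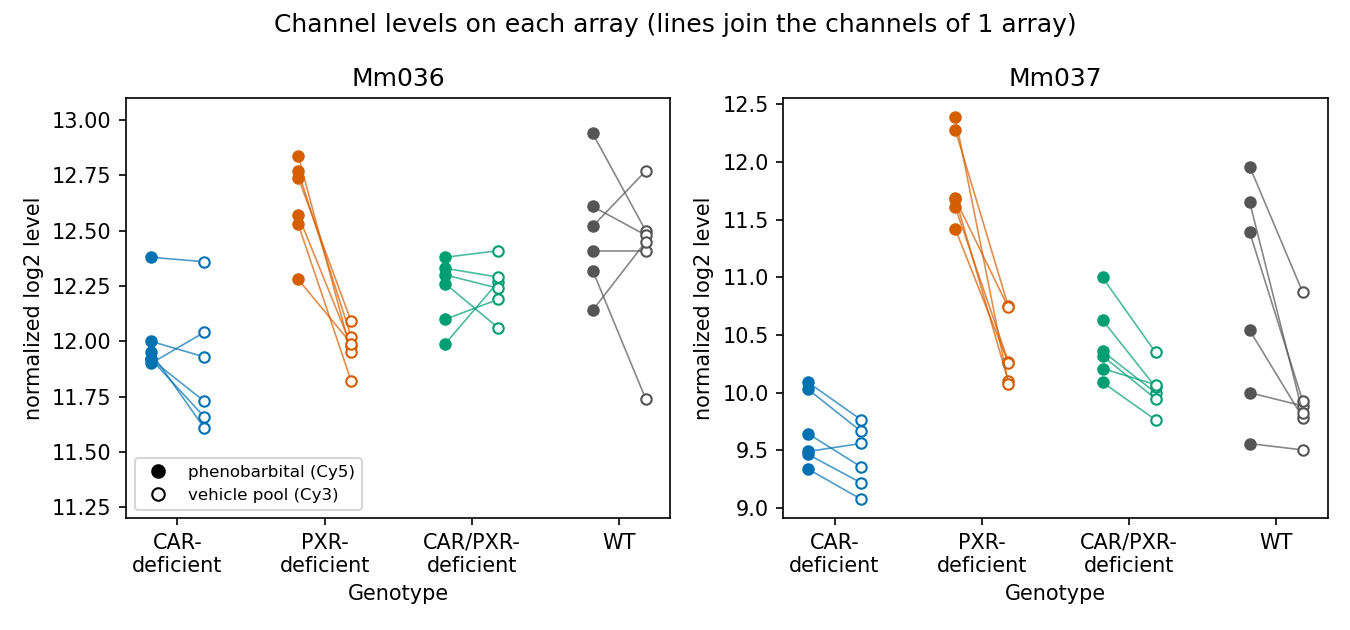
Normalized log2 level (vertical axis) of Mm036 and Mm037 in the phenobarbital channel (filled points) and the vehicle pool channel (open points) of each array, by genotype (horizontal axis), with a line joining the channels of an array. For Mm037 the treated level averages 11.91 in PXR-deficient and 9.68 in CAR-deficient samples, and the pool level 10.39 and 9.44.

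The ratios of the probes moved together across samples. Pearson's r between Mm036 and Mm037 was 0.753 and Spearman's rho 0.682 over the 23 samples, and r was 0.626 without the 2 samples farthest from the median of Mm036. After each genotype's mean was taken off, r was 0.631. These are descriptions over samples that share a pool within each genotype, and both probes share the array, its dyes and its normalization.

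Mm037 had the higher log2 ratio in 21 of the 23 samples, the exceptions being CAR-deficient replicates 4 and 6. The excess of Mm037 over Mm036 averaged 0.12 ± 0.21 in CAR-deficient (SD, n = 6), 0.87 ± 0.33 in PXR-deficient (n = 5), 0.43 ± 0.15 in CAR/PXR-deficient (n = 6) and 0.82 ± 0.54 in WT liver (n = 6). Under loess the excess was largest in PXR-deficient and WT liver. This place of WT liver was not kept under other scalings, loess per block apart: with median centring the excess was 0.87 in PXR-deficient, 0.37 in CAR/PXR-deficient and 0.33 in WT liver, and in the authors' value table it was 0.76, 0.47 and 0.36 in that order. In CAR-deficient liver it was -0.004 with median centring and -0.22 in the authors' value table. Since all copies of Mm036 lie in block 2 and all of Mm037 in block 1, the median log2 ratio of all probes in each block is given beside the loess values: block 1 minus block 2 averaged -0.05 in CAR-deficient, 0.02 in PXR-deficient, -0.06 in CAR/PXR-deficient and 0.06 in WT liver, and the part of this offset in the excess was not tested. With loess fitted in each block, the means of Mm037 and Mm036 were 1.57 and 0.60 in PXR-deficient liver, 0.37 and -0.12 in CAR/PXR-deficient liver, 0.23 and 0.0021 in CAR-deficient liver, and 0.82 and 0.14 in WT liver.

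**Figure D3:**
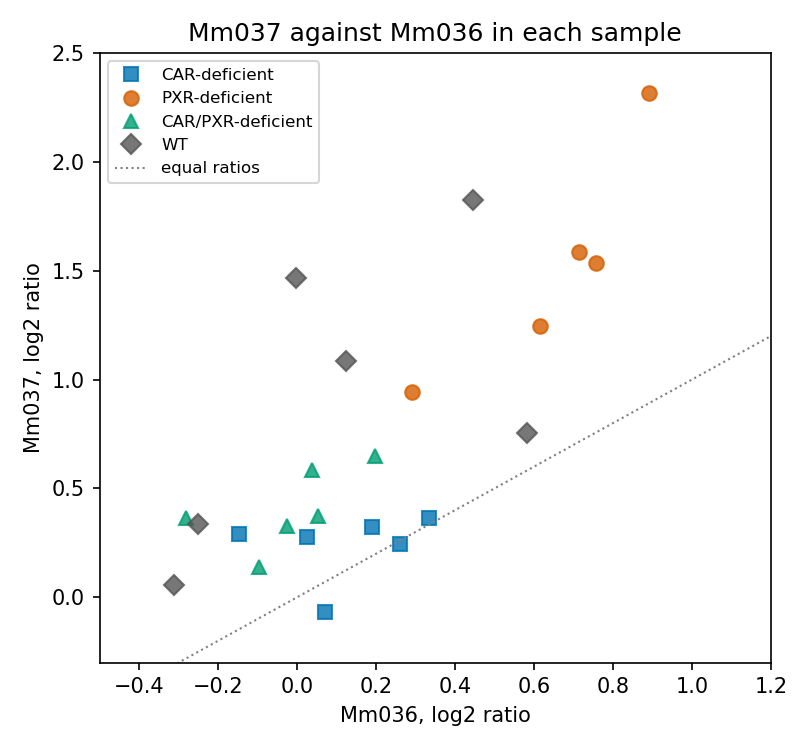
Log2 ratio of Mm037 (vertical axis) against that of Mm036 (horizontal axis) in each of the 23 samples, with symbols by genotype and a dotted line of equal ratios. In 21 samples the point lies above the line, and the point furthest to the upper right is PXR-deficient replicate 4, at 0.89 for Mm036 and 2.32 for Mm037.

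The tested probes whose log2 ratios were most like those of Mm036 and Mm037 are named by 1 rule, the 3 highest values of Pearson's r over samples in which both were measured. For Mm036 these were Mm051 (r = 0.845 over 23 samples), Mm084 (0.775 over 15) and Mm037 (0.753 over 23), out of 78 probes compared. Spearman's rho was 0.787 for Mm051 and 0.561 for Mm084. With genotype means taken off, r was 0.632 for Mm051 and 0.428 for Mm084. Mm051 had mean log2 ratios of 0.52 in CAR-deficient, 1.44 in PXR-deficient, 0.10 in CAR/PXR-deficient and 0.43 in WT liver, so it too was highest in PXR-deficient liver. Mm084 had means of -0.19, 0.20, -0.21 and 0.0037 in the same order, a far smaller range.

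For Mm037 the most alike probes by this rule were Mm007 (r = 0.814 over 23 samples), Mm008 (0.813 over 23) and Mm052 (0.803 over 14). Spearman's rho was lower for each, at 0.624, 0.675 and 0.446. With genotype means taken off, r was 0.813, 0.777 and 0.799, close to the values over all samples. Mm007 had mean log2 ratios of 0.11 in CAR-deficient, 0.53 in PXR-deficient, -0.11 in CAR/PXR-deficient and 0.22 in WT liver, and Mm008 had -0.06, 0.47, -0.25 and 0.19. Mm052 was measured in 6, 2, 2 and 4 samples of these groups, with means of 0.32, 1.85, -0.29 and 1.01.

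Apart from the pair itself, the nearest numbers analysed here, Mm038 and Mm034, were not among the 3 highest in Pearson's r for either member. Mm038 had mean log2 ratios of 3.43 in PXR-deficient and 3.01 in WT liver but -0.10 in the 3 CAR/PXR-deficient samples that measured it, and no usable value in CAR-deficient liver. Over the 14 samples shared, none of them CAR-deficient, its r was 0.648 with Mm037 and 0.558 with Mm036. Its Spearman's rho was 0.771 with Mm037 and 0.604 with Mm036. The first was above the rho of Mm007, Mm008 and Mm052 with Mm037, though the sets of samples differ. Mm034, the nearest lower number analysed here, was named after its values were seen. It had means of 0.08 in CAR-deficient, -0.25 in PXR-deficient, 0.17 in CAR/PXR-deficient and 0.13 in WT liver. Over all samples its r was -0.151 with Mm037 and -0.203 with Mm036. With genotype means taken off, r was 0.599 with Mm037 and 0.638 with Mm036, beside 0.631 between Mm036 and Mm037. Moving together within genotypes was thus not particular to the pair.

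The place of WT liver in the order of the genotypes depended on how arrays were scaled. Loess and median centring set the bulk of all probes to 0 on each array. Relative to the calibration spike-ins, for which the labels name different mixes in the 2 channels, that bulk lay on average at 0.69 in CAR-deficient, 0.48 in PXR-deficient, 1.17 in CAR/PXR-deficient and -0.27 in WT liver on the log2 scale, and the array medians of the authors' value table averaged 0.58, 0.34, 1.37 and -0.11. With spike-in centring the mean of Mm037 was 0.89 in CAR-deficient, 2.29 in PXR-deficient and 1.54 in CAR/PXR-deficient liver, against 0.64 in WT liver, and that of Mm036 was 0.90, 1.42 and 1.16, against 0.31. In the authors' value table Mm037 averaged 0.80, 1.96 and 1.84 in the deficient groups in that order, against 0.57 in WT liver, and Mm036 averaged 1.02, 1.2 and 1.37, against 0.21.

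Under both of these scalings WT liver thus had the lowest mean of either probe, and CAR/PXR-deficient liver stood above WT where loess had placed it below. CAR/PXR-deficient replicates 1 and 2 had the highest values of Mm036 and Mm037 in the authors' value table, at 2.17 and 2.47 for Mm036 and 2.92 and 3.14 for Mm037, while the other arrays of that group had 0.55 to 1.22 for Mm036 and 0.84 to 1.49 for Mm037. PXR-deficient liver had the highest mean of Mm037 under the 7 scalings plotted. Mm036 was highest in PXR-deficient liver under 5 of the 7, with CAR/PXR-deficient liver above it in the authors' value table and WT liver above it with no normalization.

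**Figure D4:**
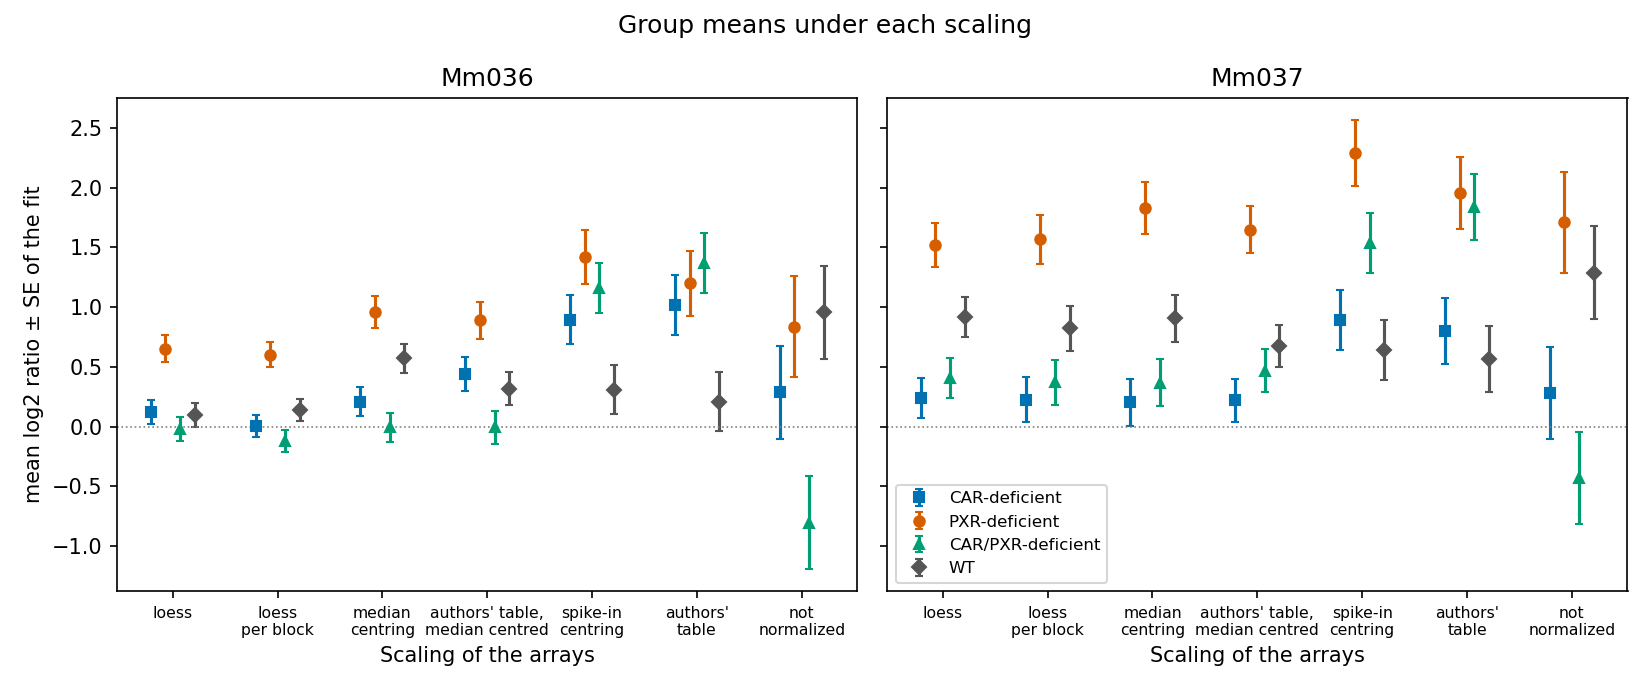
Mean log2 ratio with the SE of the fit (vertical axis) of Mm036 and Mm037 in each genotype (symbols) under 7 scalings of the arrays (horizontal axis). PXR-deficient liver is highest for Mm037 throughout, and in the authors' table and after spike-in centring WT liver is lowest for both probes.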

How the data were processed

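Liver RNA of 24 arrays was compared within each array, per the labels, as treated sample in Cy5 against a vehicle pool in Cy3. Per the file headers, the authors deposited for each spot its unnormalized intensity in both channels, the intensity of the surrounding background, how many percent of its pixels were saturated, and a flag. How spots were flagged is not given. The authors also deposited a table of log2 ratios, whose columns correlated with the unnormalized ratios at r of 0.791 to 0.99 (median 0.959), which set its direction; its centring stays unknown. Its array medians ran from -0.43 to 2.95. WT replicate 1 carries a phenobarbital tag on its pool channel, which was read as the vehicle pool from its source name and protocol.

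Intensities were corrected with normexp (offset 50) and normalized by loess over unflagged probe spots. Flagged spots were left out and copies averaged. A probe was tested if at least 2 copies exceeded background by 2 SD in either channel on at least 12 arrays. All 80 such probes entered 1 group-means fit (limma 3.58.1, R 4.3.3; lmFit, eBayes), with p-values adjusted within each comparison at 0.05. Channel levels came from Aquantile normalization with only the spots of the most negative flag left out. The fit was tested on simulated data. Figures used Python 3.11.15 and matplotlib 3.10.9. The members, the rules and the averaging of alike arrays were chosen with earlier results of these data known. The number of arrays limits the precision. The rule for named probes was the members, the probes next in number and, for each member, the 3 probes with the highest correlation over at least 12 samples. Mm035 was not analysed here, and Mm034 was added outside the rule after its values were seen. Alternatives covered background, normalization, flags, the authors' table, alike arrays, the fit, pairing, array position and single samples.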

Additional observations from a re-analysis of the deposited data

Results flagged for a closer look

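In CAR-deficient liver the log2 ratio of Mm037 in replicate 4, -0.0692, lay far below the other 5 samples, which ran from 0.25 to 0.36. Of 8 groups looked at in this way 1 stood out, and chance picks out about 1 group in 20.

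Of the 12 differences between genotypes of these probes, 5 passed an adjusted p of 0.05 in the limma fit. The probes were picked with the same ratios known, so these are listed as values and nothing is read from the calls. For Mm036 they were 0.56 on the log2 scale in PXR-deficient minus WT, 0.53 in PXR-deficient minus CAR-deficient and -0.67 in CAR/PXR-deficient minus PXR-deficient liver. For Mm037 they were 1.29 in PXR-deficient minus CAR-deficient and -1.12 in CAR/PXR-deficient minus PXR-deficient liver. Of all tested probes, 6.25 percent of 80, 10.3 percent of 78 and 18.8 percent of 80 were called in the same direction in these 3 contrasts, in the order given for Mm036.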

How the results depend on the processing

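All values are mean log2 ratios or log2 differences, and the cause of a change was not tested. Leaving out single samples moved no response or difference by more than the SD between samples, with means of 0.60 to 0.74 for Mm036 and 1.33 to 1.67 for Mm037 in PXR-deficient liver, and 0.0009 to 0.18 and 0.74 to 1.09 in WT liver. Differences of Mm036 without single samples ran from -0.06 to 0.12 in CAR-deficient, 0.47 to 0.65 in PXR-deficient and -0.20 to -0.02 in CAR/PXR-deficient minus WT liver, and those of Mm037 from -0.86 to -0.50, 0.41 to 0.79 and -0.69 to -0.33. Other background corrections, flagged spots kept, loess per block, array position as a block and 24 arrays counted moved no response or difference by more than the SD between samples, though without background correction Mm037 was 1.19 in PXR-deficient and 0.68 in WT liver. Other filters on dim probes moved no count of calls by over 1.5 times.

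Median centring gave Mm036 0.96 in PXR-deficient and 0.57 in WT liver, with differences of -0.37 in CAR-deficient minus WT, -0.58 in CAR/PXR-deficient minus WT, 0.75 in PXR-deficient minus CAR-deficient and -0.96 in CAR/PXR-deficient minus PXR-deficient liver; 7 probes were called higher in CAR/PXR-deficient liver instead of 13.

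Without normalization Mm036 had -0.80 in CAR/PXR-deficient and 0.96 in WT liver, with differences of -0.67 in CAR-deficient, -0.12 (turned in sign) in PXR-deficient and -1.76 in CAR/PXR-deficient minus WT liver, -1.64 in CAR/PXR-deficient minus PXR-deficient and -1.09 in CAR/PXR-deficient minus CAR-deficient liver. Mm037 had -0.43 in CAR/PXR-deficient liver, with -1.72 against WT, -2.14 against PXR-deficient and -0.71 against CAR-deficient liver.

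Spike-in centring gave Mm036 0.90 in CAR-deficient, 1.42 in PXR-deficient and 1.16 in CAR/PXR-deficient liver, with 0.59, 1.12 and 0.86 for these minus WT, -0.26 for CAR/PXR-deficient minus PXR-deficient and 0.27 for CAR/PXR-deficient minus CAR-deficient liver. Mm037 had 0.89, 2.29 and 1.54, with 0.25, 1.65 and 0.90 minus WT and 0.65 for CAR/PXR-deficient minus CAR-deficient liver. Then 54 probes were called higher in CAR-deficient, 74 in CAR/PXR-deficient and 5 in WT liver.

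The authors' deposited table gave Mm036 1.02 in CAR-deficient, 1.2 in PXR-deficient and 1.37 in CAR/PXR-deficient liver, with 0.81, 0.99 and 1.16 for these minus WT, 0.17 for PXR-deficient minus CAR-deficient, 0.17 (turned in sign) for CAR/PXR-deficient minus PXR-deficient and 0.34 for CAR/PXR-deficient minus CAR-deficient liver. Mm037 had 0.80 in CAR-deficient and 1.84 in CAR/PXR-deficient liver, with 0.24, 1.39 and 1.28 for CAR-deficient, PXR-deficient and CAR/PXR-deficient minus WT, -0.11 for CAR/PXR-deficient minus PXR-deficient and 1.04 for CAR/PXR-deficient minus CAR-deficient liver. Calls were 35 in CAR-deficient, 74 in CAR/PXR-deficient and 3 in WT liver. After median centring of that table Mm036 had 0.44 in CAR-deficient and 0.89 in PXR-deficient liver, with -0.90 for CAR/PXR-deficient minus PXR-deficient and -0.45 for CAR/PXR-deficient minus CAR-deficient liver.

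Without CAR/PXR-deficient replicates 1 and 2, 7 probes were called higher in that group, and without WT replicates 2 and 6, 1 probe in CAR-deficient liver. At the second array position, with 1 WT array, WT liver had -0.31 for Mm036 and 0.0547 for Mm037, and CAR-deficient, PXR-deficient and CAR/PXR-deficient minus WT gave 0.43, 0.90 and 0.31 for Mm036 and 0.10, 1.42 and 0.31 for Mm037.

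Same-numbered replicates of different genotypes correlated at r of -0.515 to 0.683 (median 0.0151), and those of other numbers at -0.698 to 0.711 (median 0.00711). Only 3 of 24 arrays were most like one of their own number. No pairing by number was seen, but these correlations cannot exclude one. In the deficient groups the odd numbers lay at the first position and the even numbers at the second. With the replicate block Mm036 had 0.64 and Mm037 1.5 in PXR-deficient liver, Mm037 in CAR/PXR-deficient liver was called at 0.41, and calls of higher probes were 0 in CAR-deficient, 16 in PXR-deficient, 14 in CAR/PXR-deficient and 11 in WT liver. Mm037 was dim in CAR-deficient liver, where pool intensities were 309 to 778 units, and on WT replicates 2 and 6, at 344 and 453 units. Whether dim signal affected these ratios was not tested.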
